A study of Mus musculus with 1203 samples.

Results

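Carbonic anhydrases are zinc enzymes that turn carbon dioxide and water into bicarbonate and a proton, and back. In the colon, surface absorptive cells use them to supply the bicarbonate and protons that apical exchangers such as Slc26a3 and Slc9a3 trade for chloride and sodium. Car1 and Car2 act in the cytosol, Car4 is anchored by a lipid to the outer face of the apical membrane, and Car12 spans the membrane with its active site outside. Car8 has lost the catalytic activity and is known as a binding partner of an inositol trisphosphate receptor.

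These 5 genes, of 46517 mouse genes in the expression table, are described here across single colonic cells. They were matched by gene symbol and chosen by what earlier work on these values showed, the mean TPM of Car4 by genotype in the tuft gate, so every difference below is a description with no test. The study sorted colonic cells of female mice, 11 weeks old, one by one into plates and sequenced polyadenylated RNA by a modified Smart-seq2, a full-length method. One group of mice was labelled wt and the other VillinCre;IPMKf/f, in which the Villin promoter drives Cre in intestinal epithelial cells to delete floxed Ipmk, the gene for inositol polyphosphate multikinase. The strain, and whether wt mice carried Cre or a floxed allele, is not stated in the labels. Wells were labelled tuft (sorted as EPCAM+ and SIGLEC-F+, the tuft gate) or epithelial, whose gate is not given.

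Of 1203 wells, 856 had at least 1000 genes above 0 TPM (a share of each cell's transcripts corrected for length, scaled to a total of 1000000) and were kept. The tuft gate held 766 of them, with wt cells on plate sets 1, 3 and 6 and 300 VillinCre;IPMKf/f cells on plate sets 2, 4, 5 and 7, only 23 of these on plate set 7. Epithelial wells held 39 and 51 cells. No label names an animal and no plate set holds both genotypes, so each genotype is 1 sample, genotype and plate set cannot be told apart, and the SD given is between plate sets, which may be technical. TPM keeps no read depth. Median genes per tuft-gate cell ran from 2450 to 2830.5 over wt plate sets and from 1756 to 2834 over the others. Ipmk itself was not lower in the cells labelled VillinCre;IPMKf/f: it averaged 3.61 ± 0.60 TPM (SD, n = 3 plate sets) in wt and 10.7 ± 5.52 TPM (SD, n = 4) in the others. The table has 1 value for the whole gene, deleted part and rest together, so the directions below are those of the labels.

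Cells were split by 3 genes that are not carbonic anhydrases. Krt20 cells had at least 20 TPM of Krt20, a keratin of mature surface epithelium, and numbered 53 wt and 47 VillinCre;IPMKf/f cells in the tuft gate. Tuft-class cells had at least 50 TPM of Trpm5, a taste-signalling channel, and 100 TPM of Dclk1, a tuft cell kinase, and made up 59.7% of the wt and 61% of the VillinCre;IPMKf/f cells. The rest, 28.3% and 22.3%, are called other cells, and 3 cells of each genotype met both definitions and were kept apart. In Krt20 cells of the tuft gate all 10 listed colonocyte markers were detected, with sums of 3789 to 7641 TPM over wt plate sets and 6677 to 12058 TPM over the others. The 12 tuft markers summed to 59.8 to 85.9 TPM and 0 to 109.1 TPM in those cells, against at least 1798 TPM in tuft-class cells of every plate set. Goblet cell markers were not absent from Krt20 cells: their sum ran from 31.2 to 4292 TPM in wt and from 0 to 3750 TPM in the others.

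Car1, Car2 and Car4 were more abundant in Krt20 cells than in tuft cells in each plate set, while Car8 was most abundant in other cells. Within each of the 7 plate sets, over both gates, Krt20 cells were compared with tuft-class cells. Calling a gene here needed 10 TPM in either class, a 2-fold difference and the same sign in all 7 sets, which 21.4% of 2768 genes met as higher in Krt20 cells and 16.7% as lower. Of the 4 members that reached 10 TPM, 3 were called higher, namely Car1, Car2 and Car4. With so large a share of all genes called, the count says little about the members as a group.

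Car1, the cytosolic enzyme typical of colon, was the most abundant member. It averaged 5487 ± 1252 TPM in Krt20 cells and 71.1 ± 62.4 TPM in tuft-class cells (SD, n = 7 plate sets), a difference of 6.995 ± 2.07 on the log2(mean TPM + 1) scale, on which all differences below are given. Car4 averaged 322.1 ± 186.9 TPM in Krt20 cells and 1.29 ± 1.40 TPM in tuft-class cells (SD, n = 7). Its lowest Krt20 value, 106.6 TPM, lay far above the highest value in tuft cells, 3.94 TPM, with a log2 difference of 7.11 ± 1.13. Car2, the fast cytosolic enzyme, differed less, at 98.2 ± 53.95 TPM against 19.7 ± 10.1 TPM (SD, n = 7). By their means, tuft-class cells thus held some Car1 and Car2 and hardly any Car4. In the tuft gate, Car1 was above 0 in 19.78% of wt and 28.96% of VillinCre;IPMKf/f tuft-class cells, and Car2 in 32.01% and 30.6%. Car1 reached 100 TPM in 4.32% and 6.01%. Colonocyte markers summed to 36.94 to 54.33 TPM in these cells of wt plate sets and 10.2 to 154.5 TPM in the others. Erythroid markers come from a cell type rich in Car1 and Car2. In the same cells they summed to between 0 and 1193 TPM on wt plate sets and to at most 4.38 TPM on the others. The part of either marker list in the tuft cell levels was not tested.

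Neither Car12 nor Car8 was called. Car12 averaged 10.8 ± 7.93 TPM in Krt20 cells against 1.22 ± 1.03 TPM in tuft-class cells (SD, n = 7) and was higher in 6 of 7 plate sets. Car8 stayed near 1 TPM or below in both, with 0.58 ± 0.65 TPM and 0.45 ± 0.36 TPM (SD, n = 7). Both were also found in other cells, which averaged 6.44 ± 2.50 TPM of Car12 and 3.25 ± 1.85 TPM of Car8 (SD, n = 7). For Car8 that was above tuft-class cells in 7 of 7 plate sets, although under the 10 TPM that a call needs. Car2 in other cells, at 124.2 ± 35.9 TPM (SD, n = 7), was higher than in tuft-class cells in 7 of 7 plate sets and lower than in Krt20 cells in 2. Car1 was called in each step of the order Krt20, other, tuft. Of 2728 genes, 16.2% were called higher in Krt20 than in other cells. Of 2645 genes, 15.3% were called higher in other than in tuft-class cells, so these calls say little about Car1 in particular. Car4 followed that order by its means, with 30.9 ± 42.1 TPM in other cells (SD, n = 7), but the step from other to tuft-class cells, 2.64 ± 2.69 on the log2 scale, was negative in 1 of 7 plate sets and was not called. Car12 had the same order of means, and for Car2 and Car12 the Krt20 and other cells did not differ beyond their spread.

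**Figure D1:**
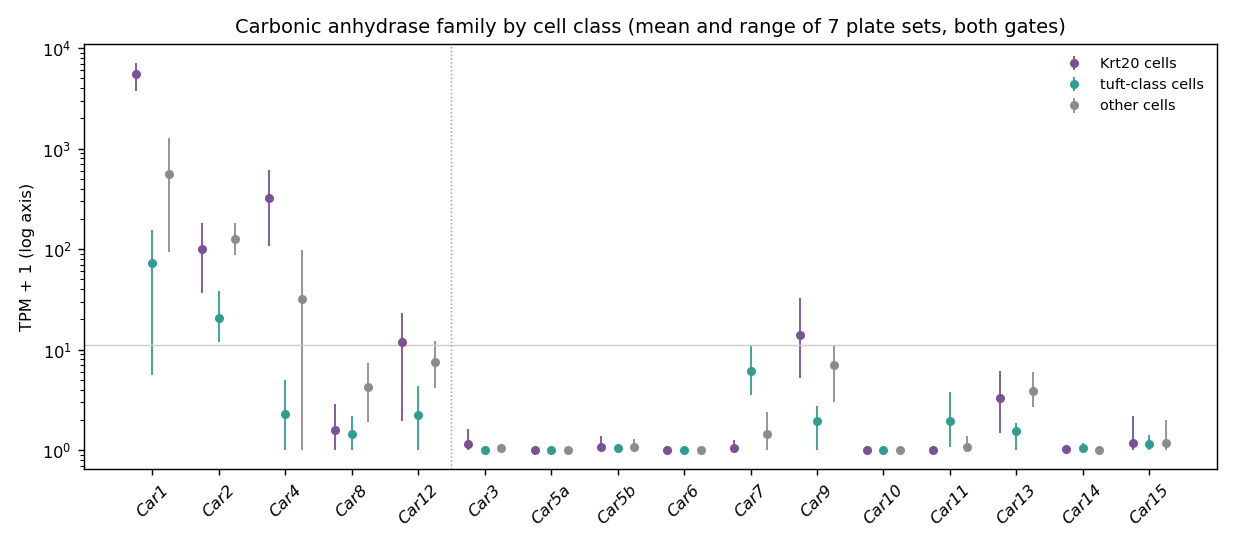
Mean TPM + 1 on a log axis of the 5 members (left of the dotted line) and 11 further carbonic anhydrases in Krt20, tuft-class and other cells of both gates; points are means of 7 plate sets and bars their range, and the grey line marks 10 TPM. Car1 and Car4 stand highest in Krt20 cells, Car8 in other cells, and Car7 in tuft-class cells.

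Among the 11 remaining family members of the list, only Car9 reached 10 TPM in a class. Car9, a membrane enzyme known for its response to low oxygen, averaged 12.9 ± 10.1 TPM in Krt20 cells and 0.95 ± 0.71 TPM in tuft-class cells (SD, n = 7), and was called higher in Krt20 cells. Car7, a cytosolic enzyme best known from neurons, showed the opposite order at 0.04 ± 0.10 TPM against 5.11 ± 2.82 TPM (SD, n = 7), lower in Krt20 cells in 7 of 7 plate sets. Car11, a family member without catalytic activity, was listed at 0 in every Krt20 cell and averaged 0.93 ± 0.94 TPM in tuft-class cells (SD, n = 7). Car5a, Car6 and Car10 were listed at 0 in all 3 classes. On the signalling side of the family, where Car8 is placed by its binding partner, tuft-class cells held 41.98 ± 8.25 TPM of Itpr2, 36.2 ± 7.53 TPM of Plcb2 and 35.1 ± 6.78 TPM of Plcg2 (SD, n = 7), a calcium release receptor and 2 phospholipases. All 3 were called lower in Krt20 cells. Itpr1, the receptor type that Car8 is known to bind, averaged 0.78 ± 0.80 TPM in tuft-class cells (SD, n = 7).

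By genotype over the whole tuft gate, Car4 was the member that differed. It averaged 12.8, 14.7 and 20.1 TPM on wt plate sets 1, 3 and 6, and 74.7, 75.1, 86.2 and 119.1 TPM on VillinCre;IPMKf/f plate sets 2, 4, 5 and 7. The lowest of the latter lay well above the highest wt value. The means were 15.9 ± 3.81 TPM (SD, n = 3) and 88.8 ± 20.9 TPM (SD, n = 4), a log2 difference of 2.41. Averaging log2(TPM + 1) over cells in place of TPM gave 0.63, still with no overlap. The call by genotype asked for 10 TPM under either label, a 1.5-fold difference and no overlap of plate sets, which 1.93% of 2277 genes met as higher in VillinCre;IPMKf/f and 2.2% as lower. Car4 ranked 8 from the highest of these 2277 genes, and 1 of the 3 members at 10 TPM was called.

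Car2 had plate sets that did not overlap either, but its difference was small. It averaged 54.4, 37.9 and 46.1 TPM in wt and 63.3, 62.4, 54.7 and 67.8 TPM in VillinCre;IPMKf/f, a log2 difference of 0.43 that falls short of 1.5-fold. Car1 overlapped: 981, 356.9 and 963 TPM in wt against 417.5, 976, 1983 and 2929 TPM. Its high value on plate set 7 went with the largest share of Krt20 cells. Car12, at 3.65 ± 1.93 TPM (SD, n = 3) against 5.24 ± 2.71 TPM (SD, n = 4), and Car8, at 1.18 ± 0.48 TPM (SD, n = 3) against 0.71 ± 0.26 TPM (SD, n = 4), overlapped and stayed under 10 TPM.

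**Figure D2:**
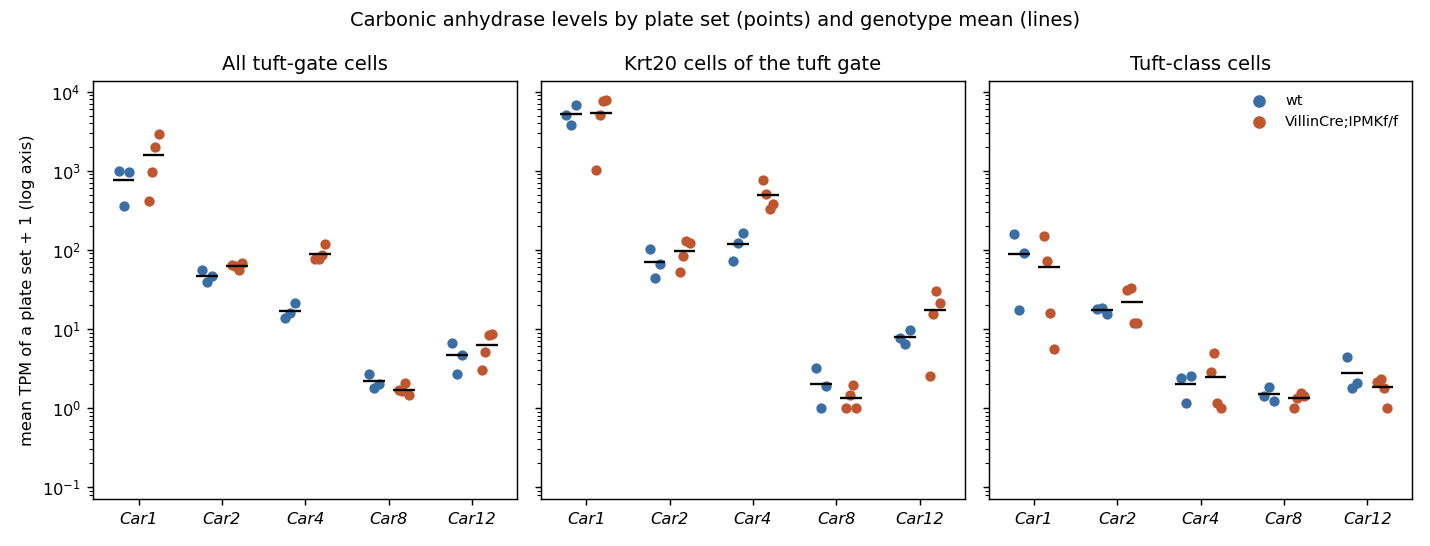
Mean TPM + 1 per plate set on a log axis for each member in all tuft-gate cells, in Krt20 cells and in tuft-class cells; each point is a plate set (3 wt, 4 VillinCre;IPMKf/f) and each line the mean over plate sets. Car4 separates by genotype in the first 2 panels and lies near 1 TPM under both labels in the third.

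Krt20 cells supplied between 68.8% and 98.2% of all Car4 TPM of the tuft gate in every plate set. Their share of cells was 16.5%, 8.26% and 11.0% on wt plate sets and 9.33%, 14.2%, 18.8% and 30.4% on VillinCre;IPMKf/f plate sets 2, 4, 5 and 7. The shares averaged 11.9% ± 4.18 (SD, n = 3) and 18.2% ± 9.04 (SD, n = 4) and overlapped. Without plate set 7, with its 23 cells, the latter mean was 14.1%.

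The mean was then recomputed with the share held constant. When every plate set kept its own class levels but received the class shares of all tuft-gate cells, Car4 was 10.3, 20.2 and 23.2 TPM in wt and 103.4, 69.8, 69.8 and 52.02 TPM in VillinCre;IPMKf/f. These values did not overlap, and their log2 difference was 2.01, or 4.04-fold. When every plate set kept its own shares but received the class levels of all cells, Car4 was 51.02, 29.5 and 37.9 TPM against 31.3, 45, 58.5 and 92.6 TPM. Those values overlapped, with a log2 difference of 0.44, or 1.36-fold, which was 0.17 without plate set 7. For Car1 the same steps gave log2 differences of 0.27 at equal shares and 0.44 from shares alone, both with overlap.

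**Figure D3:**
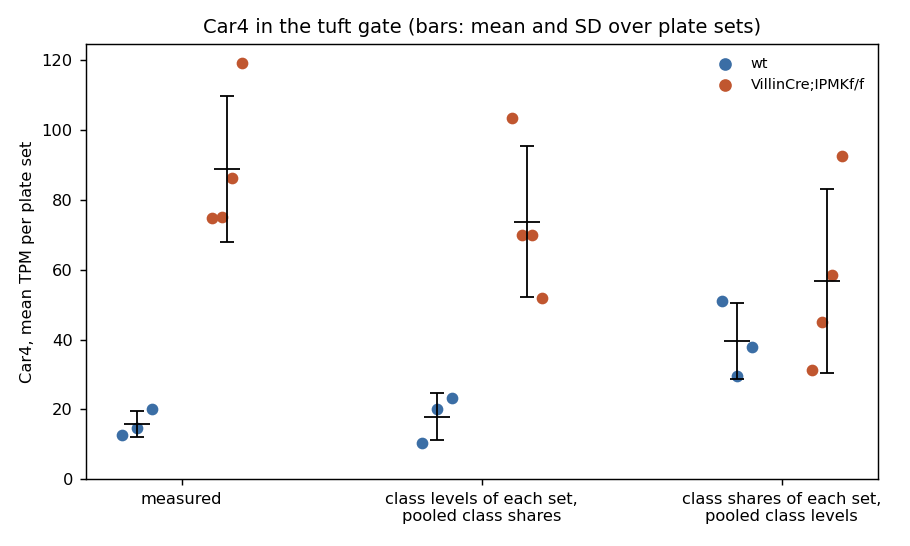
Car4 in TPM per plate set of the tuft gate as measured, with class shares made equal, and with class levels made equal; points are plate sets and bars the mean and SD. The genotypes stay apart with equal shares (17.9 ± 6.78 against 73.8 ± 21.5 TPM) and overlap when only shares differ (39.5 ± 10.8 against 56.9 ± 26.3 TPM).

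Within Krt20 cells of the tuft gate, Car4 was higher in VillinCre;IPMKf/f on every plate set. It averaged 72.2, 122.5 and 162.5 TPM in wt, from 14, 9 and 30 cells, and 771, 501.7, 325.1 and 384.4 TPM in VillinCre;IPMKf/f, from 7, 15, 18 and 7 cells. The means of 119.1 ± 45.3 TPM (SD, n = 3) and 495.6 ± 197.8 TPM (SD, n = 4) differed by 2.05 on the log2 scale. By single plate, the 8 wt plates ran from 56.5 to 220.8 TPM and the 7 others from 309.5 to 1062 TPM. Each plate held 2 to 13 of these cells, with 2 behind the value of 1062 TPM. Plates divide the same plate sets and add no replicates. In this comparison 4.09% of 2519 genes were called higher in VillinCre;IPMKf/f and 5.16% lower; of the 4 members at 10 TPM only Car4 was called, ranking 71 from the highest. These are the same cells as in the tuft-gate comparison, so the second value is no independent support for the first.

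Single Krt20 cells of the tuft gate varied widely in Car4. Car4 was above 0 in 43 of 53 wt Krt20 cells (81.1%, 95% exact Clopper-Pearson interval 68.03% to 90.6%) and in 31 of 47 VillinCre;IPMKf/f cells (65.96%, 50.7% to 79.1%). Among positive cells the median was 115.5 TPM in wt and 403.6 TPM in VillinCre;IPMKf/f. At least 500 TPM was reached by 4 of 53 wt cells (7.55%, 2.10% to 18.2%) and by 13 of 47 others (27.7%, 15.6% to 42.6%). The intervals cover the counting of cells only. In the tuft gate the highest wt Krt20 cell held 766.5 TPM, and the highest VillinCre;IPMKf/f cell of each plate set between 1487 and 2489 TPM. A wt Krt20 cell of the epithelial wells, on plate set 6, held 1911 TPM, within that range.

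The median over all Krt20 cells of a plate set overlapped between genotypes. It was 56.2, 137.7 and 52.04 TPM in wt and at least 183.2 TPM on 3 of the 4 VillinCre;IPMKf/f plate sets. Plate set 5, with 8 of 18 cells at 0 and a median of 40.5 TPM, lay below all wt sets. Averaging log2(TPM + 1) over cells, which weights cells at 0 more, reduced the difference to 0.68 with overlap. Median genes per Krt20 cell were 1978, 1847 and 2954.5 in wt and 2202, 2732, 2086 and 1662 in VillinCre;IPMKf/f, which overlapped. The result kept its separation without the highest cell of each plate set, at a log2 difference of 1.74.

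**Figure D4:**
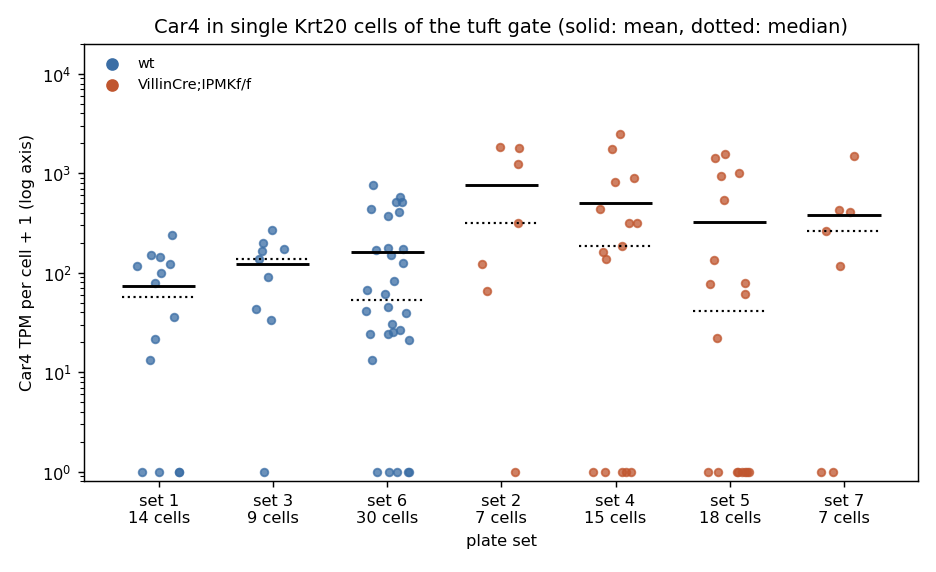
Car4 TPM + 1 on a log axis in each Krt20 cell of the tuft gate, by plate set; solid lines are means and dotted lines medians over all cells of the set. Cells at or above 500 TPM number 4 of 53 in wt and 13 of 47 in VillinCre;IPMKf/f, and plate set 5 has the lowest median, 40.5 TPM.

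The remaining members overlapped between genotypes in the same cells. Car1 averaged 5257 ± 1525 TPM in wt (SD, n = 3) and 5396 ± 3194 TPM in VillinCre;IPMKf/f (SD, n = 4), with 1009 TPM on plate set 2 against 5047 to 7849 TPM on the other 3. The plate set with the least Car1 was thus the one with the most Car4, from only 7 cells. The 9 Krt20 cells of its epithelial wells averaged 5874 TPM of Car1 and 487.7 TPM of Car4. In the Krt20 cells of the tuft gate, Car2 averaged 69.3 ± 29.1 TPM (SD, n = 3) and 96.6 ± 35.96 TPM (SD, n = 4). Car12 was at 6.59, 5.51 and 8.58 TPM in wt and 1.54, 14.5, 29.4 and 20.2 TPM in VillinCre;IPMKf/f, from 15 of 53 and 16 of 47 cells with any value. Single cells weighed heavily on it, as the highest cell gave 80.2% of all Car12 on plate set 7. Car8 was listed above 0 in 11 of 53 and 4 of 47 cells.

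Krt20 itself did not separate the genotypes in these cells, at 218.4 ± 72.6 TPM (SD, n = 3) and 258.6 ± 119.3 TPM (SD, n = 4), but some other colonocyte genes did. Where 4.09% of 2519 genes were called higher and 5.16% lower, 4 of the 10 colonocyte markers were called higher in VillinCre;IPMKf/f and none lower. They were Slc26a3, Aqp8, Saa1 and Lypd8, that is the chloride and bicarbonate exchanger of the apical membrane, a water channel, an acute-phase protein and an antibacterial surface protein. Over all 10 markers the median log2 difference was 0.25, with 9 positive, against −0.09 over all 2519 genes. In Krt20 cells of both gates the median of the markers was 0.045, with 5 positive. In the tuft gate, Saa1 of these cells averaged 51.2 ± 13.02 TPM (SD, n = 3) and 420 ± 210.5 TPM (SD, n = 4). Trpm5 was lower in VillinCre;IPMKf/f Krt20 cells of the tuft gate, at 11.6 ± 3.29 TPM (SD, n = 3) against 3.24 ± 3.95 TPM (SD, n = 4). So was Dclk1, at 13.4 ± 5.96 TPM (SD, n = 3) against 1.89 ± 2.56 TPM (SD, n = 4). Both reached 10 TPM only in wt, the label where their mean was higher. Of the 12 listed tuft markers 4 reached 10 TPM, and 2 of these were called lower, where 5.16% of all 2519 genes were. In Krt20 cells with neither Trpm5 nor Dclk1 above 0, a choice made after seeing the data, the log2 difference of Car4 was 2.07.

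Genes that work beside carbonic anhydrases in ion exchange differed in the same cells. Of 4 listed bicarbonate and chloride transporters at 10 TPM, 3 were called higher and 1 lower, against 4.09% and 5.16% of all 2519 genes. Their median log2 difference was 1.22, against −0.09 over all these genes. Slc26a3 averaged 39.3, 19.6 and 43.03 TPM in wt and 92.6, 101.3, 127.9 and 60.3 TPM in VillinCre;IPMKf/f. Slc26a2, a sulfate and anion exchanger, averaged 31.7 ± 3.93 TPM (SD, n = 3) and 63.3 ± 16.1 TPM (SD, n = 4). Ano1, a calcium-gated chloride channel, averaged 2.74 ± 1.78 TPM (SD, n = 3) and 34.1 ± 33.7 TPM (SD, n = 4). Ano1 entered the count and the median only through the label where its mean was higher. The lower one was Slc4a2, a chloride and bicarbonate exchanger mostly of the basolateral side, at 50.5 ± 14.2 TPM (SD, n = 3) against 25.7 ± 7.72 TPM (SD, n = 4).

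Of 8 listed sodium, proton, water and acid transport genes at 10 TPM, 5 were called higher and none lower, with a median of 0.75. Of all 2519 genes, 4.09% were called higher and 5.16% lower. Slc26a3 and Aqp8 are also counted among the colonocyte markers above, so these lists are not independent. Aqp8 averaged 18.3, 8.79 and 71.03 TPM in wt and 206.2, 96.2, 79.8 and 171.1 TPM in VillinCre;IPMKf/f. Atp1b1, the beta subunit of the sodium pump, differed by 0.61 on the log2 scale. Atp12a, the colonic proton and potassium pump, averaged 1.46 ± 1.27 TPM (SD, n = 3) and 13.8 ± 10.4 TPM (SD, n = 4), and Scnn1a, a subunit of the epithelial sodium channel, 4.11 ± 4.65 TPM (SD, n = 3) and 27.1 ± 26.7 TPM (SD, n = 4). The sodium and proton exchangers did not separate: Slc9a2 was at 15.8 ± 3.32 TPM (SD, n = 3) against 13.5 ± 2.37 TPM (SD, n = 4), and Slc9a3 at 9.19 ± 6.85 TPM against 10.3 ± 7.35 TPM. Their scaffold Slc9a3r1 was at 52.6 ± 2.27 TPM (SD, n = 3) against 53.03 ± 3.79 TPM (SD, n = 4). Atp12a, Scnn1a and Slc9a3 reached 10 TPM only in VillinCre;IPMKf/f. They thus entered the count and the median only through the label where their mean was higher.

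Many Krt20 cells were high for only 1 of Car1 and Car4. Taking 100 TPM as high, 16 of 53 wt cells of the tuft gate were high for both, 19 for Car1 alone, 6 for Car4 alone and 12 for neither. Among VillinCre;IPMKf/f cells the counts were 17, 18, 9 and 3 of 47. Over the 63 wt and 71 VillinCre;IPMKf/f Krt20 cells of both gates, which share plates and TPM totals, the Pearson correlation of log2(TPM + 1) was −0.29 for Car1 with Car4, −0.38 for Car2 with Car4 and 0.67 for Car1 with Car2. The first of these was −0.14 in the wt and −0.39 in the VillinCre;IPMKf/f cells. The highest of these values was that of the cytosolic pair, and those with Car4 were weak.

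A split of the tuft-gate Krt20 cells by Car4, chosen after its values were seen, gave the levels of Car1 on either side. In the 26 VillinCre;IPMKf/f cells with at least 100 TPM of Car4 the median Car1 was 556.9 TPM, against 6431 TPM in the 21 cells below. Median Slc26a3 was 119.5 TPM in the former and 8.79 TPM in the latter, and median Saa1 was 345.9 TPM against 0. In wt, median Car1 was 410.5 TPM in the 22 cells with at least 100 TPM of Car4 and 1618 TPM in the 31 below. Median Slc26a3 was 1.45 TPM in those 22 wt cells and 2.83 TPM in the 31 below, and median Saa1 was 0 in both. The medians of the 22 wt cells lay below those of the VillinCre;IPMKf/f cells above the same cut. Median Krt20 was 149.9 TPM above and 80.7 TPM below the cut in wt, and 175.2 and 70.3 TPM in VillinCre;IPMKf/f. The cut does not match Car4 levels, which reached 766.5 TPM in the wt cells above it and 2489 TPM in the VillinCre;IPMKf/f cells.

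**Figure D5:**
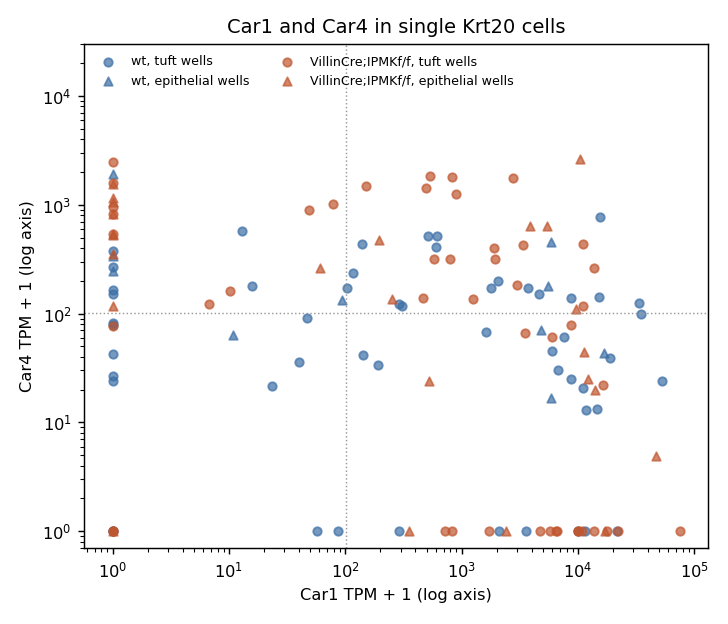
Car4 against Car1, both as TPM + 1 on log axes, in 63 wt and 71 VillinCre;IPMKf/f Krt20 cells of both gates, by genotype (colour) and well label (shape); dotted lines mark 100 TPM. Most cells with the highest Car1 lie below 100 TPM of Car4.

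In tuft-class cells no member was called between genotypes, where 1.87% of 2299 genes were called higher and 2.7% lower. Car4 averaged 1.03 ± 0.76 TPM in wt (SD, n = 3) and 1.502 ± 1.86 TPM in VillinCre;IPMKf/f (SD, n = 4), with a value above 0 in 7 wt cells (2.52%, 1.02% to 5.12%) and 9 VillinCre;IPMKf/f cells (4.92%, 2.27% to 9.13%). Car1 averaged 87.8 ± 69.6 TPM (SD, n = 3) and 59.4 ± 65.5 TPM (SD, n = 4), and Car2 16.3 ± 1.59 TPM (SD, n = 3) and 20.9 ± 11.6 TPM (SD, n = 4). Of 3 listed receptor and phospholipase genes at 10 TPM, none was called; Plcb2, at 42.2 ± 3.35 TPM (SD, n = 3) against 31.3 ± 4.69 TPM (SD, n = 4), did not overlap but differed by less than 1.5-fold. Car11 had values that did not overlap, at 1.76 ± 1.02 TPM (SD, n = 3) against 0.36 ± 0.22 TPM (SD, n = 4), below the 10 TPM that a call needs. It was picked from the further family members after its values were seen. The share of all genes without overlap is not given here, so the lack of overlap of Plcb2 and Car11 is a description only.

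In other cells of the tuft gate Car1 was called higher, which was so for 0.607% of 2307 genes. It averaged 239.7, 106.4 and 487.5 TPM in wt and 1039, 909.5 and 1769 TPM on VillinCre;IPMKf/f plate sets 4, 5 and 7, and plate set 2, the lowest of these 4, was still above all wt sets. The means were 277.8 ± 193.4 TPM (SD, n = 3) and 1076 ± 499.7 TPM (SD, n = 4). The call rests on where Krt20 is divided. The 14 wt and 9 VillinCre;IPMKf/f cells with Krt20 above 0 and under 20 TPM averaged 1467 and 4942 TPM of Car1, and with Krt20 cells taken from 5 TPM the log2 difference of 2.10 became −0.69. Without the highest cell of each plate set it was 1.65 and the sets overlapped. Car4 in other cells was at most 15.8 TPM on each plate set but 5, where 104.9 TPM came almost entirely from 1 cell of 2228 TPM. Just outside and just inside the Krt20 threshold, Car4 averaged 15.0 TPM below 20 TPM of Krt20 and 86.6 TPM from 20 to under 100 TPM in wt, and 33.6 and 345.8 TPM in VillinCre;IPMKf/f.

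Epithelial wells gave a different picture. Car1 was called higher in VillinCre;IPMKf/f, as were 3.24% of 3393 genes, with 1008, 1288 and 860 TPM in wt and 2791, 2228, 2368 and 3472 TPM in the others. Car4 averaged 115.7, 33.8 and 116.8 TPM in wt and 352.6, 0, 406.7 and 135.6 TPM in VillinCre;IPMKf/f. The means, 88.8 ± 47.6 TPM (SD, n = 3) and 223.7 ± 189.6 TPM (SD, n = 4), and the log2 difference, −0.23, have opposite signs because plate set 4, with 9 cells, was listed at 0. The cells behind these values differed by label: 18 of 39 wt cells were tuft-class cells and 10 were Krt20 cells, against 1 and 24 of 51 in VillinCre;IPMKf/f. The 12 tuft markers summed to between 206.8 and 1627 TPM on wt plate sets and to at most 60.96 TPM on the others. The 8 goblet markers summed to between 0.97 and 126.3 TPM on wt plate sets and to between 157.7 and 11432 TPM on the others. In Krt20 cells of these wells the goblet sums ran from 0 to 3.19 TPM in wt and from 13.1 to 16821 TPM in VillinCre;IPMKf/f. The part of either marker list in the Car1 difference was not tested. In the 10 wt and 24 VillinCre;IPMKf/f Krt20 cells of these wells, Car4 averaged 347.2, 146.6 and 461.3 TPM and 487.7, 0, 693 and 234.4 TPM by plate set, which overlapped. The values of plate sets 1 and 4, 347.2 and 0 TPM, rest on only 2 cells each, fewer than the 3 asked for elsewhere, and the other 5 on 3 to 9 cells.

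With both gates joined, a choice made after seeing the data, Krt20 cells held 106.6, 128.5 and 205.2 TPM of Car4 in wt and 611.7, 442.7, 438.4 and 321.9 TPM in VillinCre;IPMKf/f. These did not overlap and differed by 1.64 on the log2 scale. Between the gates, on the 7 plates that carry both labels, tuft wells were lower than epithelial wells on 6 of 7 plates for Car1, Car2 and Car4, by −1.45 ± 1.43, −1.14 ± 1.26 and −0.45 ± 2.85 on the log2 scale (SD, n = 7 plates). None was called, where 2.37% of 2954 genes were called lower.

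The genes most like each member over all 856 kept cells are given as a description, since cells share plates and TPM totals. Car1 was closest to Cyp2c55 (Pearson r 0.78 on log2(TPM + 1)), Dpep1, Selenbp1 and Guca2a. Car4 was closest to Ces2c (0.77), Sectm1b, Muc3 and Saa1, a list with no gene of the former. Car2 was closest to Krt19 (0.75), Dmbt1 and Hadh. Among the genes most like Car12 were Csrp2 (0.56), Dmbt1 and Ugt1a7c, so Dmbt1 stood near both of these members. Car8 had weaker neighbours, led by Gpx2 (0.47), with Kcne3, Stmn1 and Mgst1.

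By the GENCODE M21 annotation of GRCm38, which may not be the release behind the table, all 5 genes are protein coding. Car1 (chromosome 3, 14766216 to 14808368, minus strand) and Car2 (chromosome 3, 14886273 to 14900770, plus strand) lie close together. Car4 lies on chromosome 11 (84957786 to 84966044, plus strand), Car8 on chromosome 4 (8143362 to 8239041, minus strand) and Car12 on chromosome 9 (66713686 to 66766845, plus strand). Car1 overlaps Gm16399, and Car8 overlaps Gm11799 and Gm25355. The sources used here do not say how reads in these overlaps were assigned.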

How the data were processed

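The authors deposited 1 table of TPM per well, which per the submitters' processing notes came from Bowtie2 2.4.2, RSEM 1.3.3 and build mm10. Columns that hold values sum to between 999999 and 1000000, 18S ribosomal RNA (Rn18s-rs5) takes 76.4% of TPM on average, and read depth is unknown. Of 1203 columns, 38 from 1 near-empty plate were not used. Kept were 466 wt and 300 VillinCre;IPMKf/f tuft-gate cells (tuft-class 278 and 183). Wells were joined to the labels by title. For each plate set and class with at least 3 cells the mean TPM was taken and compared as log2(mean TPM + 1), plate sets weighted equally, with Python 3.11.15 and numpy 2.4.6. The call rule by genotype was tested on simulated plate-set means, without single cells or classes. The step that makes class shares equal was not tested on simulated cells. No doublet caller was run and no p-value was computed. Alternatives were other pseudocounts, means of logs, gene minimums, class thresholds, a rescaling without mitochondrial and the 20 most abundant genes, and leaving out cells or plate sets. Named are the 5 members, listed genes that reach 10 TPM in a group, the 4 genes most correlated with each member, and Krt20, Trpm5, Dclk1 and Ipmk; genes below 10 TPM were chosen after their values were seen. Some genes that this rule names are not reported here. The members, lists and thresholds were chosen with earlier results of these data known.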

Additional observations from a re-analysis of the deposited data

Results flagged for a closer look

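In 26 sets of 4 VillinCre;IPMKf/f plate-set values searched for a value far from the others, 1 stood apart, where chance gives about 1 in 20: Car4 in other cells of the tuft gate, at 104.9 TPM on plate set 5, against at most 7.43 TPM on the other 3. It rests on 1 cell of 2228 TPM in a class without Krt20 at 20 TPM.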

How the results depend on the processing

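Over 20 settings, 22 recomputed values moved by at least the SD between plate sets, and 1 value of a called result changed sign. The others lay closer to those reported. Sign changes of results that were not called were not counted. Car4 in the tuft gate, 2.41 on the log2 scale, was 1.92 with a pseudocount of 10 TPM, 0.63 as a mean of logs over cells, 1.95 after rescaling and 2.05 without the highest cell of each plate set. In Krt20 cells it was 0.68, with overlap, as a mean of logs. The class difference of Car4 was 4.66 with a pseudocount of 10 TPM. Car1 in other cells changed sign, to −0.69, with Krt20 cells taken from 5 TPM; the cause was not tested. Leaving out each plate set in turn gave 2.26 to 2.58 for Car4 in the tuft gate, 1.73 to 2.31 in Krt20 cells, 1.68 to 2.23 at equal class shares, 0.17 to 0.66 from class shares alone, 6.87 to 7.38 between classes, and 2.16 to 9.19 percentage points for the Krt20 share, lowest without plate set 7. Rescaling gave no value for Car1, which is among the genes it removes. No paired analysis was possible because no plate set holds both genotypes and no label pairs wells.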
